A study of Mus musculus with 12 samples.

Results

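The heat shock proteins and their DNAJ co-chaperones were followed in mouse hearts as 65 genes. They were all genes of the deposited count table whose symbol begins with Hspa, Hspb, Hspd, Hspe, Hsph, Hsp90 or Dnaj and which had at least 10 counts in 3 or more of the 12 hearts. The table held 72 such symbols among 19308 genes, and 7 of them (Dnajb3, Dnajb7, Dnajb13, Dnajc5g, Dnajc6, Dnajc22 and Hspb9) did not reach that count. The 65 members were sorted by where their proteins work into 9 cytosolic HSP70 and HSP110 genes, 2 cytosolic HSP90 genes, 20 cytosolic and nuclear DNAJ genes, 13 endoplasmic reticulum (ER) genes, 10 mitochondrial genes, 6 small heat shock protein genes and 5 others. Cryab, a small heat shock protein whose symbol does not begin with these letters, was counted among the co-chaperones and partners instead.

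The 4 groups were sham-operated WT (WT sham), sham-operated F3-KO (F3-KO sham), TAC-operated WT (WT TAC) and TAC-operated F3-KO (F3-KO TAC) hearts, with 3 hearts in each. All mice were of the C57BL/6 strain, were operated at 8 weeks of age and gave their hearts 1 week later. Transverse aortic constriction (TAC) narrows the aortic arch with a ligature, which raises the pressure the left ventricle has to overcome, whereas sham mice had the operation without the ligature. F3-KO mice lack the cardiac fatty acid binding protein FABP3 in the whole body, through CRISPR-Cas9 editing. Whole-heart RNA was sequenced, so that fewer cells of a type and less RNA per cell cannot be told apart.

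Chaperones of the HSP70 family hold unfolded proteins in cycles of ATP use, DNAJ proteins bring them their clients and start the cycle, HSP110 proteins recharge them, and HSP90 finishes the folding of kinases, receptors and muscle proteins. Small heat shock proteins need no ATP and keep unfolded or stretched proteins from clumping, in heart muscle mainly along the sarcomere. The ER and the mitochondria have sets of their own, which are switched on by unfolded protein in those compartments, whereas the cytosolic set answers to heat shock factor.

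Levels are given as CPM, the counts of a gene per 1000000 counts of its library, after scaling of library sizes. The scaling factors lay between 0.931 and 1.09. Levels and sums of marker genes, and the CPM that 3 counts make up, are given without this scaling. Differences are log2 fold changes from one edgeR quasi-likelihood model of all 12 hearts and 14094 genes, each with its 95% interval, and a gene was called at an adjusted p (Benjamini-Hochberg over all genes tested) under 0.05. The libraries held between 10424289 and 14371981 counts. Fabp3 mRNA was at 2117 to 3064 CPM in the 6 WT hearts and at 1002 to 1143 CPM in the 6 F3-KO hearts, a log2 difference of -1.21 after sham and -1.49 after TAC (edgeR adjusted p 0.00784 and 0.00146). The summed level of 7 cardiomyocyte markers lay between 52256 and 91015.5 CPM. That of 6 fibroblast markers lay between 657 and 1503 CPM in the sham hearts, between 1278 and 2944 CPM in the WT TAC hearts and between 1406 and 6548 CPM in the F3-KO TAC hearts.

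No member was called by edgeR in any of the 6 comparisons. The members that DESeq2, an alternative test, called in at least 1 of them were Hspa1l, an HSP70 gene, and Hspb7, a small heat shock protein gene, both lowest in the F3-KO sham hearts, and Dnajb2, a DNAJ gene with lower values in the TAC hearts of both genotypes. For TAC against sham over both genotypes, 0 of 65 members were called by edgeR, against a background of 0.078% of all genes (11 genes). An unadjusted p of at most 0.05 was reached by 5 members (7.69%), namely Hspa1l, Hspb1 and Hspb7 with more and Dnajb2 and Hspe1 with less RNA after TAC, against 17.8% of all genes. The limma-trend test called none of the members. DESeq2 called 3 (4.62%), Hspa1l, Dnajb2 and Hspb7, against 4.06% of the genes for which it gave an adjusted p. Before adjustment it had 8 members (12.3%) at a p of 0.05 or less, against 14.1% of all genes. Without F3-KO TAC heart 3, edgeR called Hspa1l (adjusted p = 0.036) and Dnajb2 (adjusted p = 0.0264) among 849 genes in all, which is 3.08% of the members against 5.92% of all genes. For TAC in F3-KO without that heart it called Hspa1l (adjusted p = 0.0407), 1.54% of the members against 5.43% of all genes.

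Within the genotypes the edgeR counts were also 0 of 65, against a background of 0% in both. In WT hearts, 5 members and 6.28% of all genes had a p of 0.05 or less before adjustment, and in F3-KO hearts 7 members (10.8%) and 17.1% of all genes. Between the genotypes, edgeR called 0 of 65 members after sham, where the background was 0.106%, and 0 of 65 after TAC, where it was 0.078%. An unadjusted p of at most 0.05 was reached by 5 members after sham (background 6.02%) and by 6 members after TAC (background 10%). For the interaction, the TAC effect of F3-KO hearts minus that of WT hearts, edgeR called 0 members with a background of 0%, and 5 members against 4.48% of all genes had a p of 0.05 or less before adjustment. DESeq2 called 2 members for TAC in F3-KO (Hspa1l and Hspb7, 3.08% against a background of 3%) and 1 between the genotypes after sham (Hspb7, 1.54% against 0.66%). It called none for TAC in WT (background 0.164%), between the genotypes after TAC (0.594%) and for the interaction (0.0313%), whereas limma-trend called none in any. Before adjustment, DESeq2 had a p of 0.05 or less for 6 members for TAC in WT (background 5.2%), 6 for TAC in F3-KO (13.8%), 5 between the genotypes after sham (4.74%), 6 between them after TAC (8.22%) and 5 for the interaction (3.99%).

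The members whose 3 hearts of one group all lay above or all below the 3 of the other were counted as well. In WT, TAC lay above sham for 3 members (4.62%, background 4.67%) and below for 3 (4.62%, background 4.43%). In F3-KO it lay above for 9 members (13.8%, background 11.5%) and below for 7 (10.8%, background 11.4%). After sham, F3-KO lay above WT for 3 members (4.62%, background 6.78%) and below for 9 (13.8%, background 6.92%), namely Hspa1l, Hsp90aa1, Dnajb2, Dnajc12, Dnajb11, Dnajc18, Hsp90b1, Hspa5 and Hspb7. After TAC it lay above WT for 5 (7.69%, background 6.3%) and below for 3 (4.62%, background 5.1%).

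The intervals say how large a difference the hearts could have hidden. For TAC against sham over both genotypes the median half-width of the interval was 0.25 on the log2 scale over the members and 0.31 over all genes. The median log2 fold change was -0.077 over the members, 40 of which lay below 0 and 25 above, and 0.0045 over all genes. Replicate hearts were closer to each other for the members (median SD of log2 CPM within a group 0.19) than for all genes (0.25), but Hspa1b, Hspa1a and Hsph1 varied far more, with SDs of 1.99, 0.77 and 0.54. Members were not compared with other genes of like level.

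The plot of CPM per kilobase of transcript ranks the members against each other, using the longest protein-coding transcript of GENCODE M21, which may not be the annotation behind the counts. Hspb7 stood first at 1689 CPM per kilobase over all hearts and Hspb6 followed at 1330, both small heat shock proteins of striated muscle. Hspa8, the constitutive cytosolic HSP70, reached 801 CPM per kilobase and Hsp90ab1, the constitutive HSP90, 573. Hspb8 and Hspb1 stood at 344 and 261, Hspa9, the mitochondrial HSP70, at 267, and the chaperonin subunit Hspd1 at 138. Hsp90b1 and Hspa5, the HSP90 and HSP70 of the ER, lay close together at 136 and 134 CPM per kilobase, within the spread of their hearts. Hspb2 stood at 72.9 and Hspb3, its partner in muscle, at 10.1, and the inducible Hsp90aa1 stood at 52.4, below the constitutive Hsp90ab1.

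**Figure D1:**
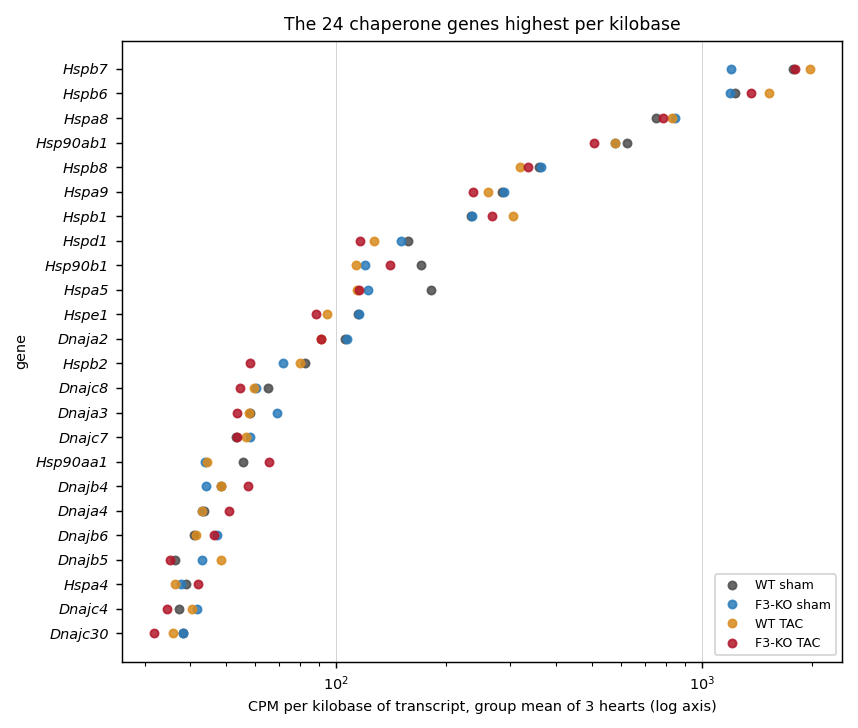
Levels of the members highest per kilobase, in CPM per kilobase of transcript on a log axis, 1 point for each group's mean of 3 hearts. Hspb7 and Hspb6 lie to the right of all other genes in every group, and the 4 points of most genes lie close together beside the distance between genes.

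**Figure D2:**
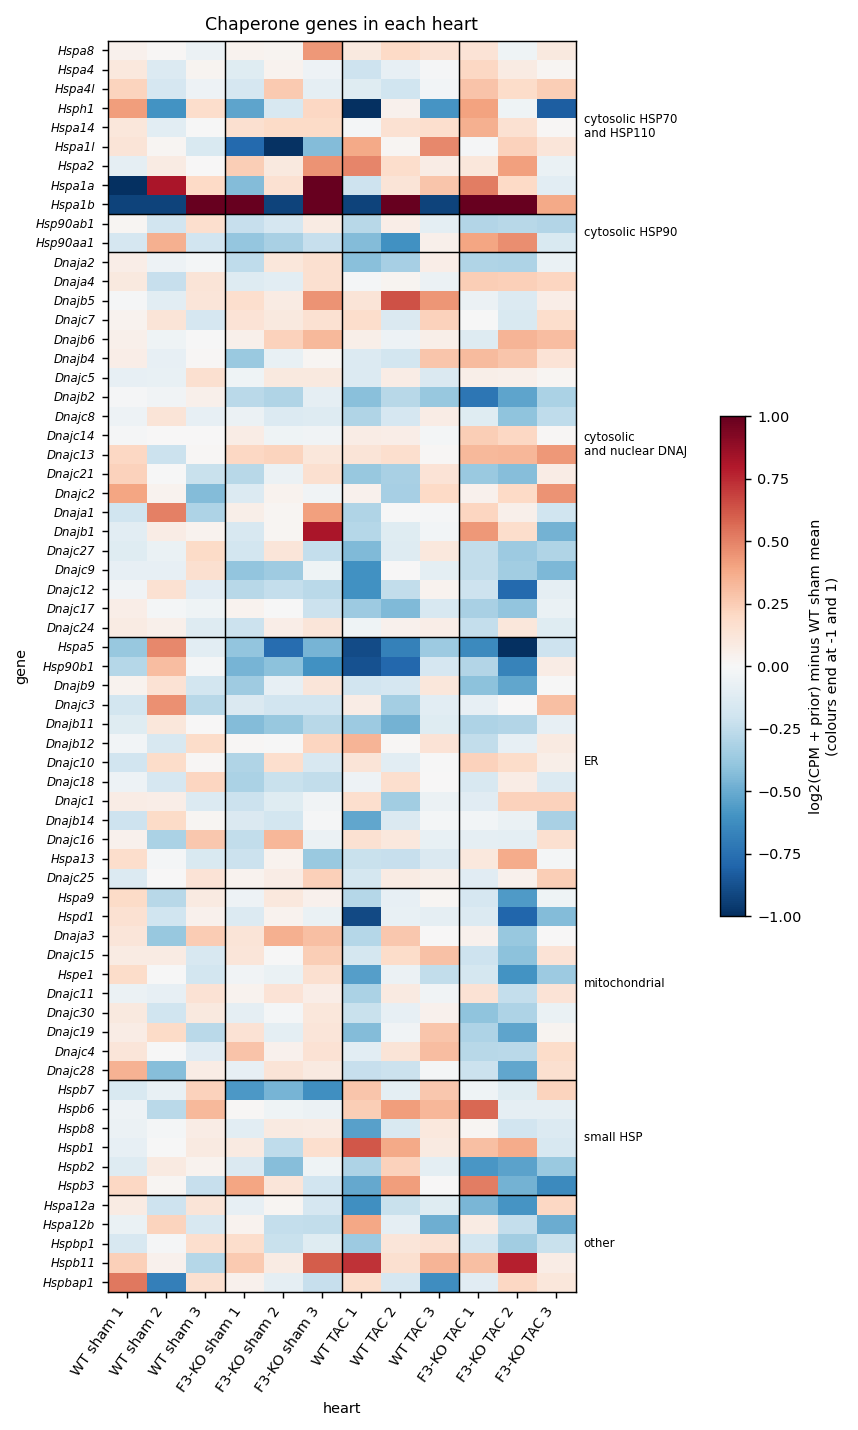
Heat map of the 65 members (down the side, by class and falling level) in the 12 hearts (along the bottom), as log2 CPM minus the mean of the WT sham hearts, with colours ending at -1 and 1. Most cells are pale; darker ones stand in Hspa1a, Hspa1b and Hsph1 in hearts of several groups, in Hspa5 and Hsp90b1 outside the WT sham hearts, in Hspb7 and Hspa1l in the F3-KO sham hearts and in the mitochondrial genes of WT TAC heart 1 and F3-KO TAC heart 2.

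Of the 9 cytosolic HSP70 and HSP110 genes, 6 had a log2 fold change above 0 for TAC over both genotypes, with a median of 0.023, and Hspa1a, Hspa1b and Hsph1 lay below 0. The 2 classic stress-inducible ones were scarce. Hspa1a (gene ID 193740) was at 1.94, 7.33 and 4.75 CPM in the WT sham hearts and at 2.99, 4.58 and 14.8 CPM in the F3-KO sham hearts. After TAC it was at 3.53, 4.49 and 5.0 CPM in WT and at 5.92, 4.72 and 3.79 CPM in F3-KO hearts. F3-KO sham heart 3 stood alone at the top and the groups overlapped. Hspa1b (gene ID 15511) was listed at 0 in 5 hearts (WT sham 1 and 2, F3-KO sham 2, WT TAC 1 and 3), where 3 counts would have been 0.241 to 0.288 CPM, and was highest at 7.97 CPM in the same F3-KO sham heart. With so few counts no fold is given for Hspa1b. The 2 genes are near-identical copies, so the split of reads between them is uncertain, and that holds for their neighbour Hspa1l as well.

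The copies have the same heat shock element in their promoters, which is why they are shown first. The motif was searched as GAANNTTC or TTCNNGAA, each of which reads the same on both strands and may overlap the next, in windows from 250 bases before to 50 bases after each start (RefSeq, GRCm38.p6). The capitals mark the match. The stretches lie at chr17:34972233-34972280 (Hspa1a) and chr17:34959315-34959362 (Hspa1b), both on the minus strand, and end 77 bases before the start.
Hspa1a: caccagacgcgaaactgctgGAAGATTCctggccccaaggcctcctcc
Hspa1b: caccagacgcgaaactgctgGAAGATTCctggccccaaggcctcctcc
All 48 bases shown were identical, as were 296 of the 300 bases of the 2 windows. Of the members, 53 had a window, and 15 of them (28.3%) held the motif, against 17% of all 27025 genes with a window. By class it was in 3 of 8 HSP70 and HSP110 genes, 5 of 17 cytosolic DNAJ genes, 1 of 11 ER genes, 2 of 7 mitochondrial genes and 4 of 5 small heat shock protein genes. No window was held for Dnajc2, Dnajc5, Dnajc11, Dnajc12, Dnajc18, Dnajc30, Hspa8, Hspa9, Hspa13, Hsp90aa1, Hsp90ab1 and Hspb2.

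Hspa8 (gene ID 15481), the housekeeping HSP70 of the cytosol, was at 1843, 1808 and 1721 CPM in the WT sham hearts and at 1837, 1820.2 and 2419 CPM in the F3-KO sham hearts. The WT TAC hearts had 1918, 2053 and 1978 CPM and the F3-KO TAC hearts 1971, 1737 and 1918 CPM. The 3 WT TAC hearts all lay above the 3 WT sham hearts, the F3-KO groups overlapped, and the highest value was again in F3-KO sham heart 3. The log2 fold change for TAC over both genotypes was 0.018 (95% interval -0.21 to 0.25).

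Hspa4 (gene ID 15525), an HSP110 relative that exchanges the nucleotide of HSP70, was among the steadiest members. It was at 194, 163 and 184 CPM in WT sham, 165, 184 and 173 CPM in F3-KO sham, 155, 170.1 and 178 CPM in WT TAC and 208, 189.9 and 182 CPM in F3-KO TAC hearts. The 3 F3-KO TAC hearts lay above the 3 WT TAC hearts, with a log2 difference of 0.20 (95% interval -0.05 to 0.46) whose interval includes 0. Hsph1 (gene ID 15505), the inducible HSP110, was by contrast at 59.2, 29.2 and 50.1 CPM in WT sham and 30.7, 39.6 and 51 CPM in F3-KO sham hearts. After TAC it was at 19.8, 45.5 and 29.4 CPM in WT and 58.6, 43 and 24.9 CPM in F3-KO hearts. Every group held both high and low hearts, and the interval for TAC over both genotypes, -0.80 to 0.32, was the widest of the class after those of Hspa1a and Hspa1b.

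Hspa1l (gene ID 15482), an HSP70 known mainly from testis, had the highest log2 fold change of its class and, for TAC over both genotypes, the smallest p of all members. It was at 14.9, 13.7 and 12.2 CPM in the WT sham hearts and at 7.82, 6.75 and 9.99 CPM in the F3-KO sham hearts. After TAC, WT hearts had 17.7, 13.7 and 19 CPM and F3-KO hearts 13.4, 15.9 and 14.8 CPM. The 3 F3-KO sham hearts were the lowest of all 12, below every WT sham heart and every F3-KO TAC heart, whereas the 2 WT groups overlapped. TAC over both genotypes gave 0.58 (95% interval 0.30 to 0.85) with an edgeR adjusted p of 0.0986 (DESeq2 0.00762). Within the genotypes the values were 0.30 (95% interval -0.076 to 0.69) in WT and 0.85 (95% interval 0.46 to 1.24) in F3-KO hearts, and the log2 difference between the genotypes was -0.73 (95% interval -1.12 to -0.34) after sham and -0.19 (95% interval -0.57 to 0.19) after TAC.

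The 2 cytosolic HSP90 genes ordered the groups differently, Hsp90aa1 with its highest mean and Hsp90ab1 with its lowest mean in F3-KO TAC. Hsp90aa1 (gene ID 15519), the inducible form, was at 159.9, 230.2 and 157 CPM in WT sham and 137, 143 and 153 CPM in F3-KO sham hearts. After TAC it was at 133, 118 and 186 CPM in WT and 236, 248 and 161 CPM in F3-KO hearts. The 3 F3-KO TAC hearts lay above all 3 F3-KO sham hearts, but F3-KO TAC heart 3 lay inside the range of the WT TAC hearts and WT sham heart 2 was nearly as high as the highest. The log2 fold change for TAC was -0.32 (95% interval -0.79 to 0.14) in WT and 0.57 (95% interval 0.11 to 1.04) in F3-KO hearts. The interaction was 0.90 (95% interval 0.24 to 1.56), with an unadjusted p of 0.0121 and an edgeR adjusted p of 0.954.

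Hsp90ab1 (gene ID 15516), the constitutive form, was at 1584, 1371 and 1759 CPM in WT sham and 1331, 1389 and 1651 CPM in F3-KO sham hearts. The WT TAC hearts had 1288, 1636 and 1461 CPM, and the F3-KO TAC hearts stood very close to each other at 1278, 1287 and 1279 CPM. These 3 were lower than all other 9 hearts, though WT TAC heart 1 was nearly as low. The log2 fold change for TAC over both genotypes was -0.14 (95% interval -0.38 to 0.10), with an interaction of -0.081 (95% interval -0.56 to 0.40).

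Of the DNAJ co-chaperones of the cytosol, 13 of 20 had a log2 fold change below 0 for TAC over both genotypes, with a median of -0.088. Dnaja1 (gene ID 15502), a farnesylated partner of HSC70, was at 29.3, 48.1 and 27.3 CPM in WT sham and 35.3, 34.3 and 44.9 CPM in F3-KO sham hearts. After TAC it was at 27.5, 33.7 and 33.6 CPM in WT and 39.3, 35 and 29.4 CPM in F3-KO hearts, and all groups overlapped. Dnajb1 (gene ID 81489), the heat-inducible HSP40, was at 22.1, 25.1 and 24.5 CPM in WT sham and 21.4, 24.2 and 42.2 CPM in F3-KO sham hearts. The TAC hearts had 19.6, 21.9 and 23.4 CPM in WT and 32.4, 27.1 and 17.2 CPM in F3-KO. Its highest heart, F3-KO sham heart 3, was also the highest for Hspa1a, Hspa1b and Hspa8. The summed level of 8 immediate early genes, which answer to handling of the tissue, was 266 CPM in that heart and 186 to 380.0 CPM over all hearts.

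Dnajb2 (gene ID 56812), a DNAJ protein that hands ubiquitinated clients to the proteasome, was the lowest of its class by fold change. It was at 108, 106 and 112 CPM in the WT sham hearts and at 89.7, 88.2 and 102 CPM in the F3-KO sham hearts. After TAC, WT hearts had 81.1, 89.3 and 83.2 CPM and F3-KO hearts 65.6, 75.2 and 87.1 CPM. In both genotypes every TAC heart lay below every sham heart, in F3-KO by a narrow margin, and it was the only member of which this was true (1 of 65, against a background of 0.83%). No member lay higher in every TAC heart in both genotypes, where the background was 1.17%. The log2 fold change over both genotypes was -0.33 (95% interval -0.51 to -0.14) with an edgeR adjusted p of 0.105 (DESeq2 0.00944), and it was -0.36 (95% interval -0.62 to -0.10) in WT and -0.30 (95% interval -0.56 to -0.036) in F3-KO hearts. The F3-KO sham hearts also lay below the WT sham hearts, with a log2 difference of -0.22 (95% interval -0.48 to 0.043). Between the genotypes, no member lay to the same side in every heart after both operations, against a background of 0.759% above and 0.688% below WT.

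**Figure D3:**
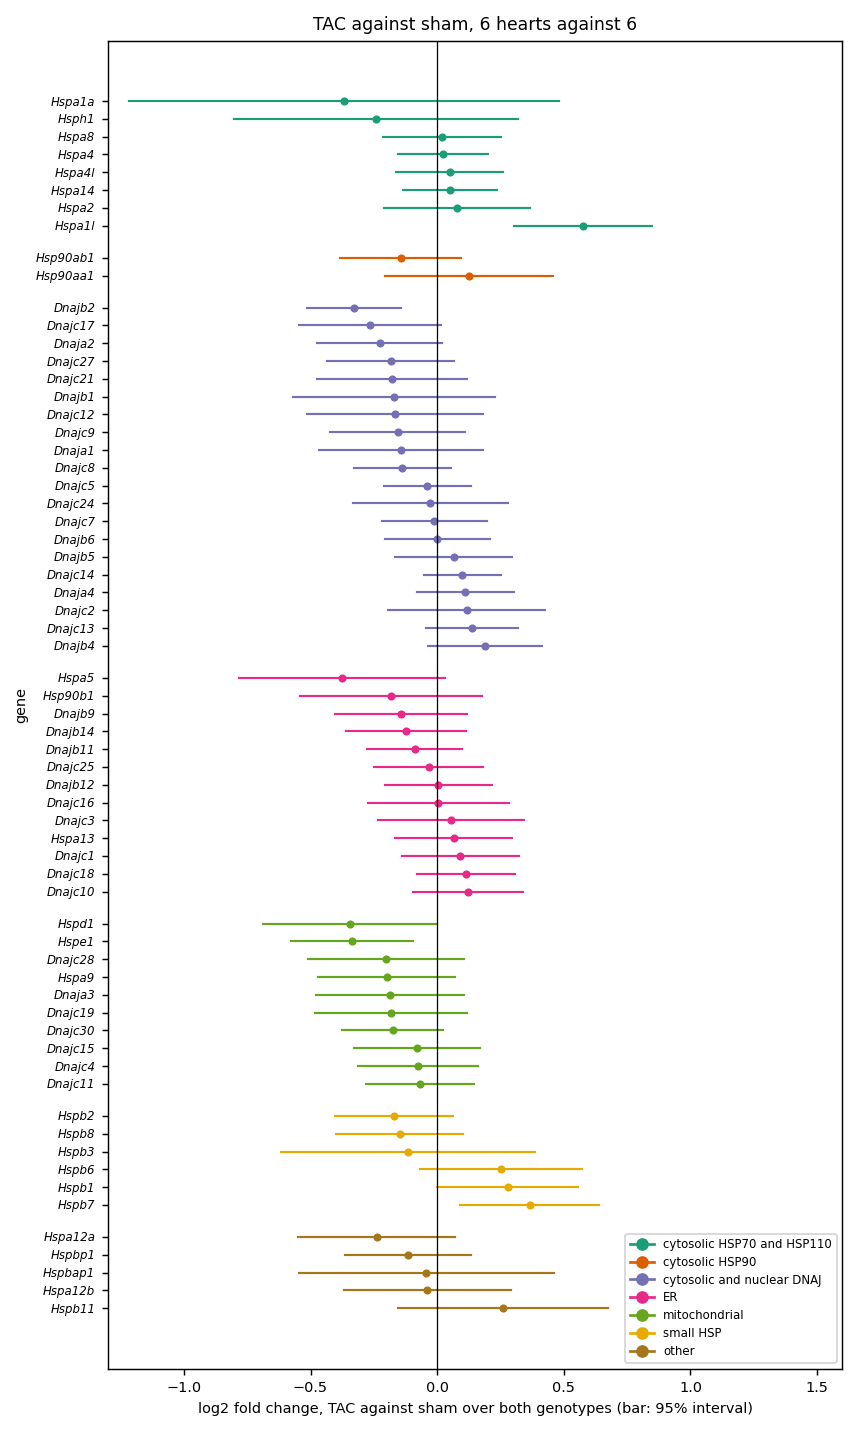
Log2 fold changes of 64 members for TAC against sham over both genotypes (points, edgeR) with 95% intervals (bars), by class; Hspa1b is left out because it was at 0 in 5 hearts. Hspa1l, Hspb7, Hspb1, Dnajb2 and Hspe1 have intervals that exclude 0, and all 10 mitochondrial points lie to the left of 0.

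The ER chaperones Hspa5, Hsp90b1, Dnajb11 and Dnajb9 had their highest group mean in WT sham, and within it their highest value in heart 2. Hspa5 (gene ID 14828), the ER HSP70 also known as BiP, was at 499, 907 and 603 CPM in the WT sham hearts and at 494, 383 and 469.9 CPM in the F3-KO sham hearts. The WT TAC hearts had 349, 406 and 504 CPM and the F3-KO TAC hearts 417, 297 and 562 CPM. All 3 F3-KO sham hearts lay below the 3 WT sham hearts, whereas the TAC groups overlapped with their sham groups. Hsp90b1 (gene ID 22027), the ER HSP90 also known as GRP94, was at 390.5, 589.8 and 471 CPM in WT sham and 345, 359 and 313 CPM in F3-KO sham hearts. It was at 261, 277 and 424 CPM in WT TAC and 388, 299.5 and 503 CPM in F3-KO TAC hearts, and again the F3-KO sham hearts all lay below the WT sham hearts.

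Both genes, and Dnajc3, hold the letters of the ER stress element in their windows, and they are shown because no other member window held it. The element was searched as CCAAT and CCACG with 9 bases between them, on both strands, and was in 3 of 53 members (5.66%) and 0.137% of all genes with a window. The stretches lie at chr2:34772005-34772063 on the plus strand (Hspa5), chr10:86705513-86705676 on the minus strand (Hsp90b1) and chr14:118937807-118937865 on the plus strand (Dnajc3), all before the start, and the capitals mark both parts of each element.
Hspa5: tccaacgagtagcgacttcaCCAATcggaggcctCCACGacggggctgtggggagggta
Hsp90b1: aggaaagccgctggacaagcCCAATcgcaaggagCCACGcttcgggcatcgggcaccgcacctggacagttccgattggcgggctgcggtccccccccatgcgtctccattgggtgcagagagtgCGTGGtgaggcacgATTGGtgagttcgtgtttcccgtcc
Dnajc3: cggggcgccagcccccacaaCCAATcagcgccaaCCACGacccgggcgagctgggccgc
Hsp90b1 has 2 such elements, the one nearer to the start on the opposite strand, whereas Hspa5 and Dnajc3 have 1 each.

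Dnajc3 (gene ID 100037258), the ER co-chaperone that also restrains the kinase PERK, was at 56.3, 87.5 and 52.8 CPM in WT sham and 57.9, 55.8 and 55.9 CPM in F3-KO sham hearts. After TAC it was at 67.2, 50.4 and 59.4 CPM in WT and 60.4, 63.9 and 78.8 CPM in F3-KO hearts. The F3-KO TAC hearts all lay above the F3-KO sham hearts, and the other groups overlapped. Dnajb11 (gene ID 67838), the BiP partner for secreted proteins, was at 59.3, 69.8 and 64.4 CPM in WT sham and 47.6, 49.6 and 53 CPM in F3-KO sham hearts. It was at 49.9, 46.3 and 59.3 CPM in WT TAC and 52.1, 52.5 and 60.7 CPM in F3-KO TAC hearts. Every F3-KO sham heart and, by a narrow margin, every WT TAC heart lay below every WT sham heart, and the F3-KO TAC hearts overlapped with all other groups. Dnajb9 (gene ID 27362), which restrains the ER stress sensor IRE1, was at 84.3, 90.7 and 72.2 CPM in WT sham, 64, 77.4 and 89.1 CPM in F3-KO sham, 71.9, 72.8 and 88.7 CPM in WT TAC and 61.7, 57.1 and 81.7 CPM in F3-KO TAC hearts, with overlap throughout. WT sham heart 2 was the highest of all 12 hearts for each of these 5 ER genes. That heart also had the highest sum of 4 neutrophil markers, at 39 CPM against 5.37 to 18.1 CPM in the other hearts. Among the sham hearts it had the highest sums of 5 macrophage markers (259 CPM) and of 6 fibroblast markers (1503 CPM) and the lowest sum of the cardiomyocyte markers (60195 CPM), with no listed marker of these types at 0 in all hearts. Dcn alone made up 1202 CPM of that fibroblast sum. Col1a1 (78.7 CPM), Col3a1 (77.6 CPM) and Postn (16.9 CPM) were each lower there than in any other sham heart. The part of these markers in the ER values was not tested.

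Between the genotypes after sham, the log2 difference was -0.58 (95% interval -1.15 to -0.0028) for Hspa5, -0.51 (95% interval -1.02 to -0.005) for Hsp90b1 and -0.37 (95% interval -0.63 to -0.10) for Dnajb11. In WT hearts, TAC against sham gave -0.67 (95% interval -1.25 to -0.10) for Hspa5, -0.59 (95% interval -1.10 to -0.084) for Hsp90b1 and -0.32 (95% interval -0.58 to -0.05) for Dnajb11. The corresponding values in F3-KO hearts were -0.077 (95% interval -0.65 to 0.50), 0.23 (95% interval -0.28 to 0.74) and 0.14 (95% interval -0.13 to 0.40). The comparison of the genotypes after sham and that of TAC in WT share the WT sham hearts. The smallest edgeR adjusted p of an ER member was 0.782 in WT after TAC and 0.578 between the genotypes after sham. Without WT sham heart 2 the value for Hspa5 was -0.30 between the genotypes after sham and -0.39 for TAC in WT. That for Hsp90b1 was -0.35 and -0.43, and that for Dnajb11 was -0.31 and -0.26. Before adjustment, the edgeR p values were 0.27 and 0.151 for Hspa5, 0.19 and 0.114 for Hsp90b1, and 0.0428 and 0.0819 for Dnajb11.

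Over the 13 ER members the median log2 fold change for TAC was -0.084 in WT hearts, where 10 lay below 0, and 0.14 in F3-KO hearts, where 7 lay above 0. The interaction lay above 0 for 9 of 13 with a median of 0.24, against a median of 0.032 over all genes. It was 0.82 (95% interval 0.10 to 1.54) for Hsp90b1, 0.60 (95% interval -0.21 to 1.41) for Hspa5, 0.46 (95% interval 0.078 to 0.83) for Dnajb11 and 0.41 (95% interval -0.17 to 0.99) for Dnajc3. For Hspa13 it was 0.54 (95% interval 0.081 to 1.00). Among the members below 0 were Dnajb12 at -0.32 (95% interval -0.74 to 0.10) and Dnajb9 at -0.12 (95% interval -0.64 to 0.40). The smallest edgeR adjusted p for the interaction among the ER members was 0.954. Of the 21 further ER chaperones and stress genes listed as partners, none was called by edgeR in any comparison. They had a median interaction of 0.30. A p of 0.05 or less before adjustment was reached by 4 of the 21, all above 0, against 4.48% of all genes in either direction. They were measured in the same hearts, and 7 of the 21 were highest in WT sham heart 2, without which the median was 0.24 and none had a p of 0.05 or less before adjustment (0 called by edgeR). Without WT sham heart 2 the interaction of the ER members had a median of 0.15, with 10 of 13 above 0. The values were then 0.31 for Hspa5, 0.15 for Dnajc3, 0.65 for Hsp90b1, 0.39 for Dnajb11 and 0.55 for Hspa13. Their edgeR p values before adjustment were 0.379, 0.485, 0.0771, 0.0519 and 0.0349 in that order.

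Hspd1 and Hspe1, the subunits of the mitochondrial chaperonin HSP60 and its lid HSP10, had the lowest log2 fold changes of the mitochondrial members after TAC. The genes are read away from each other from starts that are 216 bases apart in RefSeq, so that their windows share 285 bases. One stretch with 3 overlapping matches to the heat shock element lies in both windows. It is shown because the 2 genes share it, and its part in their levels was not tested. The stretch lies at chr1:55088053-55088082, 66 to 95 bases before the start of Hspe1, and is given on the strand of Hspe1 with the matches in capitals.
Hspe1: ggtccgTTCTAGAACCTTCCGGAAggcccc

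Hspd1 (gene ID 15510) was at 423, 331 and 393 CPM in the WT sham hearts and at 345, 389 and 363 CPM in the F3-KO sham hearts. After TAC, WT hearts had 203, 361 and 357 CPM and F3-KO hearts 345, 219 and 282 CPM. Hspe1 (gene ID 15528) was at 100.2, 88.1 and 77.7 CPM in WT sham, 85.9, 84.3 and 98.6 CPM in F3-KO sham, 60, 84.5 and 74.3 CPM in WT TAC and 77.9, 58.3 and 68.7 CPM in F3-KO TAC hearts. For both genes the 3 lowest of the 12 hearts were WT TAC 1, F3-KO TAC 2 and F3-KO TAC 3. Every F3-KO TAC heart lay below every F3-KO sham heart, for Hspd1 by a very narrow margin, and the WT groups overlapped. TAC over both genotypes gave -0.34 (95% interval -0.69 to 0.0007) for Hspd1 and -0.34 (95% interval -0.58 to -0.10) for Hspe1, with edgeR adjusted p values of 0.281 and 0.165. Both genes have many processed pseudogenes in RefSeq, and the counts of both were not whole in some hearts, so reads shared with other genes may be included.

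Hspa9 (gene ID 15526), the mitochondrial HSP70 that pulls proteins into the matrix, was at 977, 707 and 909.5 CPM in WT sham and 826, 924 and 884 CPM in F3-KO sham hearts. After TAC it was at 701, 811 and 871 CPM in WT and 762, 579 and 832 CPM in F3-KO hearts. Dnaja3 (gene ID 83945), its DNAJ partner, was at 165, 117 and 181 CPM in WT sham and 166, 194 and 187 CPM in F3-KO sham hearts, and at 125, 183 and 152 CPM in WT TAC and 156, 117 and 152 CPM in F3-KO TAC hearts. All groups overlapped for Hspa9, and for Dnaja3 the F3-KO TAC hearts all lay below the F3-KO sham hearts. The values for TAC over both genotypes were -0.20 (95% interval -0.47 to 0.07) and -0.19 (95% interval -0.48 to 0.11).

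All 10 mitochondrial members had a log2 fold change below 0 for TAC over both genotypes, between -0.34 (Hspd1) and -0.068 (Dnajc11), with a median of -0.18. Over all genes, 6933 of 14094 lay below 0. The intervals of 9 of the 10 included 0, and none was called. In F3-KO hearts 10 of 10 lay below 0 with a median of -0.27, and in WT hearts 8 of 10 with a median of -0.086. The lowest values were in few hearts. The mean over the class, relative to WT sham, was -0.46 in F3-KO TAC heart 2, -0.35 in WT TAC heart 1 and -0.17 in F3-KO TAC heart 1, and between -0.13 and 0.13 in the other 9 hearts. Without F3-KO TAC heart 2 and WT TAC heart 1, a pair left out after the data were seen, 7 of 10 lay below 0 and the median was -0.075. F3-KO TAC heart 2, WT TAC heart 1 and F3-KO TAC heart 1 also had the highest sums of the 6 fibroblast markers, at 6548, 2944 and 3816 CPM, with no marker at 0 in all hearts. Their sums of the 7 cardiomyocyte markers were 52256, 61733 and 65127 CPM. F3-KO TAC heart 3 and WT sham heart 2 had cardiomyocyte sums of 54075 and 60195 CPM and fibroblast sums of 1406 and 1503 CPM. Their class means were -0.026 and -0.13. The part of these markers in the result was not tested. Of 12 further mitochondrial chaperones and proteases, edgeR called none, and the median for TAC over both genotypes was -0.13. A p of 0.05 or less before adjustment was reached by 3 of them, all below 0, against 17.8% of all genes in either direction.

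**Figure D4:**
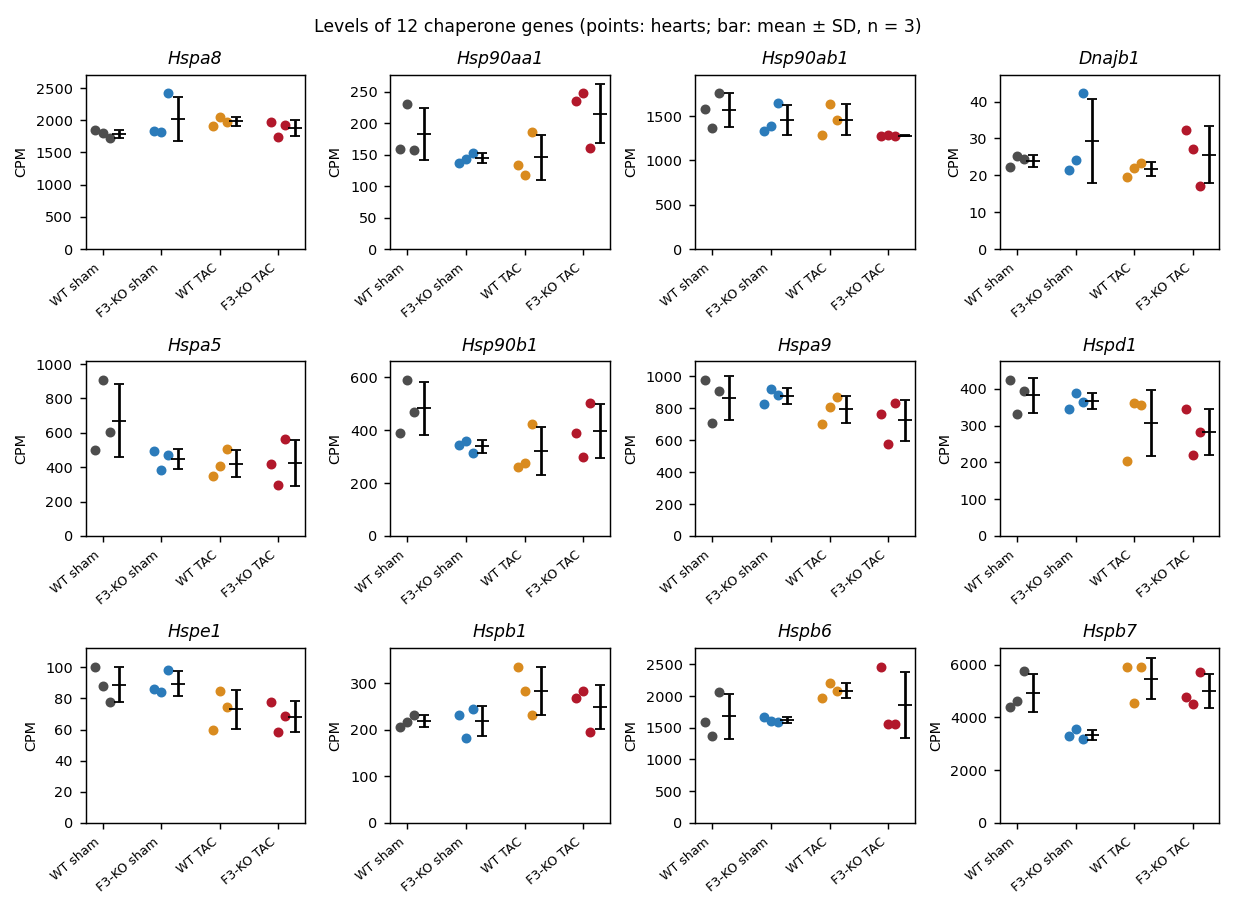
CPM of 12 members in each heart (points), with the mean and SD of the 3 hearts of each group (bars). Hspb7 is low in all 3 F3-KO sham hearts, Hspa5 and Hsp90b1 are highest in 1 WT sham heart, and Hspd1 and Hspe1 are lowest in 1 WT TAC and 1 F3-KO TAC heart.

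The small heat shock protein genes of muscle had log2 fold changes on both sides of 0. Hspb7 (gene ID 29818), the cardiovascular small heat shock protein that binds filamin, was at 4390.0, 4639 and 5744 CPM in the WT sham hearts and at 3277, 3543 and 3191 CPM in the F3-KO sham hearts. The WT TAC hearts had 5913, 4558 and 5900.4 CPM and the F3-KO TAC hearts 4755, 4504 and 5717 CPM. The 3 F3-KO sham hearts lay below all other 9 hearts, and the other 3 groups overlapped. The log2 difference between the genotypes was -0.56 (95% interval -0.95 to -0.17) after sham (edgeR adjusted p 0.525, DESeq2 0.0416) and -0.13 (95% interval -0.52 to 0.26) after TAC. TAC gave 0.58 (95% interval 0.19 to 0.97) in F3-KO and 0.15 (95% interval -0.24 to 0.54) in WT hearts, and 0.36 (95% interval 0.09 to 0.64) over both, with an edgeR adjusted p of 0.177 (DESeq2 0.0299). The interaction of 0.43 (95% interval -0.12 to 0.98) did not pass the test, with an edgeR adjusted p of 0.954.

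Hspb1 (gene ID 15507), known as HSP25 in mice and bound to actin, was at 206, 217 and 232 CPM in WT sham and 232, 183 and 244 CPM in F3-KO sham hearts. It was at 335, 283 and 232 CPM in WT TAC and 268, 282 and 195 CPM in F3-KO TAC hearts. In WT every TAC heart lay above every sham heart, the lowest of them by under 1 CPM, and the F3-KO groups overlapped. TAC gave 0.38 (95% interval -0.015 to 0.77) in WT, 0.18 (95% interval -0.21 to 0.57) in F3-KO and 0.28 (95% interval 0.0003 to 0.56) over both, with an edgeR adjusted p of 0.280. Its promoter is shown because its window held 2 heat shock elements, whereas that of Hspb6 held 1 and that of Hspb7 none. The stretch lies at chr5:135887782-135887849 on the plus strand, 70 to 137 bases before the start.
Hspb1: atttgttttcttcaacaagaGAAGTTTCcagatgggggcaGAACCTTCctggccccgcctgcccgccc

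Hspb6 (gene ID 243912), known as HSP20, was at 1598, 1373 and 2072 CPM in WT sham and 1672, 1611 and 1589.6 CPM in F3-KO sham hearts. After TAC, WT hearts had 1964, 2213 and 2086 CPM and F3-KO hearts 2461, 1556 and 1554 CPM. F3-KO TAC heart 1 was the highest of all and the other 2 of its group were among the lowest, and the interval for TAC over both genotypes was -0.067 to 0.57. Hspb8 (gene ID 80888), which works with BAG3 in the removal of damaged sarcomere proteins, was at 626, 641 and 685 CPM in WT sham, 604, 693 and 689 CPM in F3-KO sham, 447, 586 and 699 CPM in WT TAC and 659.5, 571 and 592 CPM in F3-KO TAC hearts. WT TAC heart 1 was its lowest heart, and the groups overlapped.

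Hspb2 and Hspb3 form a complex of their own in muscle. Hspb2 (gene ID 69253) was at 58, 67.5 and 65 CPM in WT sham and 57.3, 47.1 and 61.4 CPM in F3-KO sham hearts, and at 51.2, 74.3 and 59.2 CPM in WT TAC and 42.3, 43.6 and 49 CPM in F3-KO TAC hearts. All 3 F3-KO TAC hearts lay below the 3 WT TAC hearts, with a log2 difference of -0.45 (95% interval -0.78 to -0.12) and an edgeR adjusted p of 0.459. Hspb3 (gene ID 56534) was low throughout, at 9.03, 7.88 and 6.63 CPM in WT sham, 10.3, 8.48 and 6.78 CPM in F3-KO sham, 5.41, 10.5 and 7.8 CPM in WT TAC and 11.2, 5.55 and 4.95 CPM in F3-KO TAC hearts, with overlap between all groups. Over the 6 genes the median log2 fold change for TAC was 0.068, with 3 above and 3 below 0.

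The plot of the TAC effect in F3-KO against that in WT hearts shares no heart between its axes. The signs were the same for 38 of 65 members (58.5%) and for 63.1% of all genes. Across the members Pearson's r was 0.108 and across all genes 0.399, as a description, since genes measured in the same hearts are not independent. Dnajb5, a DNAJ protein known to bind the histone deacetylase HDAC4 in heart muscle, which was singled out after its values were seen, was the only member with every TAC heart above every sham heart in one genotype and below in the other (1 of 65, against a background of 0.348%). It was at 119, 111 and 130.2 CPM in WT sham and 131, 187 and 163 CPM in WT TAC hearts. In F3-KO it was at 135, 127 and 164 CPM in sham and 115, 109 and 125 CPM in TAC hearts. In both genotypes the nearest hearts of the groups were only narrowly apart. The log2 fold change was 0.42 (95% interval 0.09 to 0.74) in WT and -0.28 (95% interval -0.61 to 0.042) in F3-KO hearts.

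**Figure D5:**
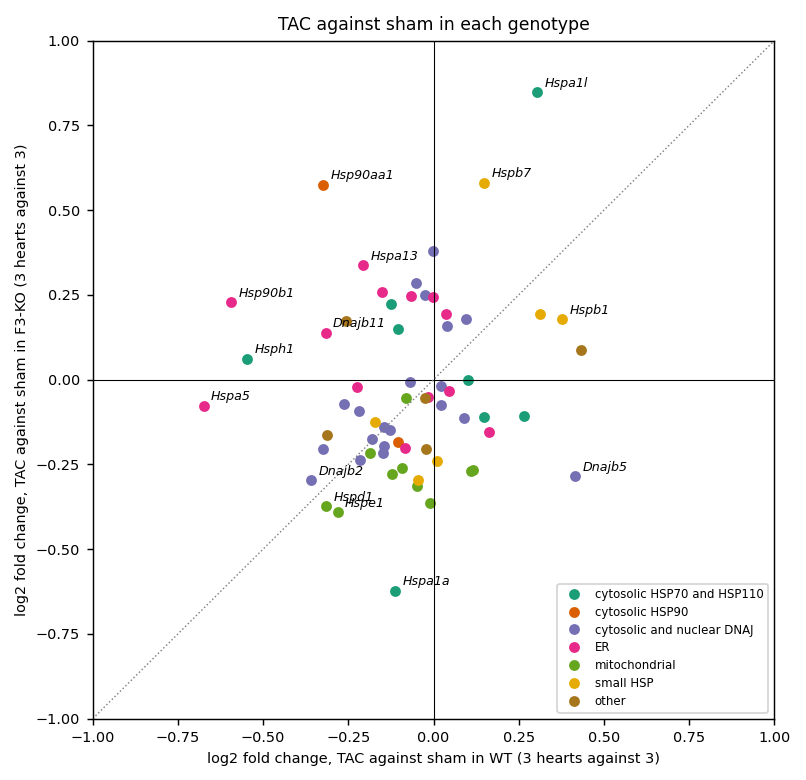
Log2 fold change for TAC against sham in F3-KO hearts (vertical axis) against that in WT hearts (horizontal axis) for 64 members, coloured by class, with Hspa1b left out and equal values on the dotted line. Hspa1l, Hspb7 and Hsp90aa1 lie highest in F3-KO, Hspa5, Hsp90b1 and Hsph1 farthest to the left in WT, and Dnajb5 in the lower right.

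The 5 members outside these classes, among them the endothelial HSP70 relative Hspa12b and the nucleotide exchange factor Hspbp1, had log2 fold changes for TAC over both genotypes between -0.24 (Hspa12a) and 0.26 (Hspb11). The 25 heat shock factors and cytosolic co-chaperones on the partner list, with Hsf1, Bag3 and Cryab among them, gave no edgeR call in any comparison. For TAC over both genotypes their median was -0.12, and 1 above and 3 below 0 had a p of 0.05 or less before adjustment, against 17.8% of all genes. The 14 subunits of the cytosolic chaperonin TRiC and of prefoldin, which passes it its clients, gave no call either, with a median of -0.073 and none at a p of 0.05 or less before adjustment. In all, 0 of 72 partners were called by edgeR in any comparison. For TAC over both genotypes 9 of the 72 had a p of 0.05 or less before adjustment, against 17.8% of all genes.

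The highest and lowest values of the members were spread unevenly over the hearts. WT TAC heart 1 was the lowest of the 12 hearts for 13 members and F3-KO TAC heart 2 for 11, whereas F3-KO TAC heart 1 was the highest for 10 members, WT sham heart 2 for 9 and WT sham heart 1 for 8. F3-KO sham hearts 1 and 2 were the highest for 1 and 2 members. The counts of 38 members were off a whole number by more than 0.1 in at least 1 heart, and 27 were whole in every heart.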

How the data were processed

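RNA-seq of 12 mouse hearts was used, with groups taken from the sample labels. The authors used SOAPnuke to trim and filter the reads, and HISAT2 2.0.4 and STAR 2.3.0 to map them. They deposited estimated counts per gene, not normalized, of which 40.6% were not whole, and these were rounded here. The counting tool and annotation are not given in the sources used here, and the submitters' processing notes name the builds mm8 and mm9 without a role. The joint table equalled the 11 complete single tables, and 0 columns were left unassigned. Libraries held 10424289 to 14371981 counts. Genes passing the edgeR filter (minimum count 10) were fitted with R 4.3.3 and edgeR 4.0.16 (TMM scaling, quasi-likelihood F test, all 12 hearts, no covariate); alternatives used limma 3.58.1 and DESeq2 1.42.0. The tests were tried on simulated counts first, in which DESeq2 recovered more of the changed genes and also called more of the unchanged genes than edgeR or limma did. DESeq2 was run on filtered genes there, whereas its calls given here come from a fit without that filter. Hearts of a group are separate biological replicates, per the labels.

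Per-heart values are given for a fixed list of central members, for the members that DESeq2 called and for members singled out after their values were seen. Not every class extreme by fold change has per-heart values. Partner genes are given by counts. The members, classes and lists were chosen with earlier results of these data known. Log2 CPM uses a prior count of 2. Promoters come from RefSeq (GRCm38.p6), and motifs were searched by letters alone.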

Additional observations from a re-analysis of the deposited data

Results flagged for a closer look

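Dnajb5 stood out because TAC went opposite ways in the genotypes: in WT all 3 TAC hearts lay above all 3 sham hearts, and in F3-KO all 3 TAC hearts lay below all 3 sham hearts. The TAC effect in F3-KO minus that in WT was -0.70 on the log2 scale (95% interval -1.16 to -0.24). The test of that difference gave an unadjusted p of 0.00628 and an edgeR adjusted p of 0.954 over 14094 genes, so it did not pass. In both genotypes the nearest hearts of the groups were only narrowly apart. No test for outlying hearts was run on the groups of 3 hearts, and fits without single hearts are given below.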

How the results depend on the processing

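The count of called members was 0 in each of the 6 comparisons by edgeR, and it stayed at 0 with size factors of DESeq2, with no filter, with at least 10 counts in every library, with limma-trend, with only the compared hearts in the fit (the 4 comparisons of 6 hearts), and without WT TAC heart 1 and F3-KO TAC heart 2, an alternative added after seeing the data. It also stayed at 0 with the replicate block in all 6 comparisons. Hearts of the same number were compared by their deviations from the group mean. The correlations ran from -0.06 to 0.172 for number 1, -0.141 to 0.061 for number 2 and -0.02 to 0.362 for number 3. Some hearts of number 3 thus deviated together in part, but the labels name no pairs, and the numbers were not taken as pairs. With single hearts left out the counts ranged from 0 to 2 for TAC over both genotypes and from 0 to 1 for TAC in F3-KO, the higher values in both without F3-KO TAC heart 3 (Hspa1l and Dnajb2, and Hspa1l), and they were 0 in the other 4 comparisons. DESeq2 called 3 members for TAC over both genotypes, 2 for TAC in F3-KO and 1 between the genotypes after sham, among 613, 442 and 102 genes in all. At a p of 0.05 or less before adjustment, edgeR counted 5, 5, 7, 5, 6 and 5 members for TAC over both genotypes, TAC in WT, TAC in F3-KO, the genotypes after sham, the genotypes after TAC and the interaction, and DESeq2 counted 8, 6, 6, 5, 6 and 5. The causes were not tested. As no member was called, the planned check of each called member's fold change was made instead on 11 members named in the report, none of which reversed its direction under any alternative. Without WT TAC heart 1, the median log2 fold change for TAC over both genotypes of the 5 members outside the 6 named classes was -0.16 in place of -0.042. With 3 hearts a group, the half-width of the unadjusted 95% interval was 0.25 on the log2 scale for the median member over both genotypes and 0.36 within one; a call after adjustment took more, as Dnajb2 at -0.33 and Hspa1l at 0.58 over both genotypes were not called by edgeR.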

Other observations

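A few further members, singled out after their values were seen, had more RNA in all 3 F3-KO TAC hearts than in all 3 WT TAC hearts. With Hspa4 they were 5 of 65 members (7.69%), against 6.3% of all genes, and Dnajb5, Hsp90ab1 and Hspb2 lay lower in all 3 (4.62%, against 5.1% of all genes). Hspa4l, an HSP110 relative, was at 69.6, 65.1 and 67.7 CPM in the F3-KO TAC hearts and at 52.6, 49.8 and 56.1 CPM in the WT TAC hearts, a log2 difference of 0.35 (95% interval 0.053 to 0.65). Dnaja4, a partner of HSP70 in muscle, was at 154.4, 153.9 and 151.4 CPM against 128, 133 and 125 CPM, a log2 difference of 0.25 whose 95% interval (-0.024 to 0.52) includes 0. Dnajc13, a DNAJ protein of endosomes, was at 55.6, 55.9 and 60.0 CPM against 48.6, 49.8 and 44.7 CPM, and Hspa13, a microsomal HSP70 relative, at 21.6, 26.0 and 19.8 CPM against 17.2, 17.1 and 18.1 CPM. The edgeR adjusted p values were 0.473 for Hspa4l, 0.525 for Dnaja4, 0.497 for Dnajc13 and 0.474 for Hspa13, so none passed the test.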
